A study of Schizosaccharomyces pombe with 3 samples.

Results

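Cytosolic ribosomal protein genes of the fission yeast Schizosaccharomyces pombe were examined for binding of the corepressor Tup12. Members were all array features whose gene symbol was rpl, rps or rpp followed by a digit, and numbered 284 of 10199 features named for genes: 140 upstream features, 6 features of long upstream regions and 138 open reading frame (ORF) features. They were matched to 135 annotated genes, and 11 features under 6 array names could not be given a current gene and keep the array's name. Another 6 features of 3 genes of RNase P, which share the letters rpp, were left out.

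Every array compared DNA from cells carrying GFP-tagged Tup12, taken in mid-log growth in rich YES medium, after immunoprecipitation with an antibody against GFP (Cy5 channel), with input DNA of the same chromatin (Cy3 channel). There were 3 arrays, listed as separate experiments, all of the same strain and condition. Where these are not separate cultures, the p-values measure only the spread between arrays. No array of an untagged strain or of other growth conditions was analysed here, and the labels do not say whether the tagged protein keeps its function. Each value is the log2 of immunoprecipitate signal divided by input signal, with 0 at the median of each array. A feature is called enriched or depleted where limma gave an adjusted p under 0.05 for its mean against 0, with Benjamini-Hochberg adjustment over all features with a value on all 3 arrays. The method moderates each feature's variance toward that of all features, so a p-value reflects the feature's own spread only in part. Errors are SDs over n = 3 arrays.

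Ribosomal proteins form the large and the small subunit of the ribosome around the ribosomal RNAs, and growing cells transcribe their genes at high rates. In fission yeast many of them are made from paralogues, and most of their promoters carry the HomolD element, which takes the place of a TATA box, often with a HomolE element before it. Tup12 is a corepressor of the Tup1 family that does not read DNA itself and is brought to promoters by DNA-binding proteins, with Ssn6 as its partner.

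The promoters of the members shared short sequences that the choice by name did not use. In the RefSeq annotation of ASM294v3, the HomolD sequence CAGTCAC or its complement lay within 250 bases before to 50 bases after the annotated transcript start in 124 of 135 members (91.9%), against 241 of all 5113 protein-coding genes (4.71%). HomolE, searched as ACCCTACCC on both strands, was found in 40 members (29.6%) and in 1.31% of all genes, while TATAAA was found in 27.4% of members and in 48.1% of all genes. Within 500 bases before the start codon, TATAAA was found in 67.4% of members and in 70.3% of all genes. The HomolD match nearest to the start began at a median of 51 bases before it (quartiles 56 and 47 bases), and ran in the direction of the gene in 80 genes and against it in 44. Below are the 100 bases before the annotated start, 5′ to 3′, of 9 members that carry the results: 2 pairs of paralogues with very different values, 2 other high members (rps801 and rpl39) and 3 low ones (rpl31, rps1501 and rpl2802). Capitals mark matches to HomolD or HomolE on either strand.
rpl2301: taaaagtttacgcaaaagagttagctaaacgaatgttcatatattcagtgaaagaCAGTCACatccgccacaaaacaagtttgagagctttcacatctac
rpl2302: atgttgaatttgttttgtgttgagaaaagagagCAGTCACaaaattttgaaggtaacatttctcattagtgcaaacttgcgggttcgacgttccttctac
rpl2501: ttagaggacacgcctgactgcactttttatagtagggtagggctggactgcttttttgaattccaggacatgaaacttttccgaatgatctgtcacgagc
rpl2502: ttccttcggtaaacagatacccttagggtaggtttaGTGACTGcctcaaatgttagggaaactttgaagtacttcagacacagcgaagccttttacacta
rps801: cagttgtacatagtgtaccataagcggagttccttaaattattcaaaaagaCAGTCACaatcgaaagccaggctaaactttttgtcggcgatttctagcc
rpl39: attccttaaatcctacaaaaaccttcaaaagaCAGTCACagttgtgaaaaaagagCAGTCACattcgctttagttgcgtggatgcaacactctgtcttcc
rpl31: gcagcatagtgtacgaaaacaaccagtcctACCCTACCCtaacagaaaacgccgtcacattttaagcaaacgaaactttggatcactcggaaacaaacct
rps1501: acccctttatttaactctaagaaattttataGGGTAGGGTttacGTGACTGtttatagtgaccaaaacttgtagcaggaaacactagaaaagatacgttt
rpl2802: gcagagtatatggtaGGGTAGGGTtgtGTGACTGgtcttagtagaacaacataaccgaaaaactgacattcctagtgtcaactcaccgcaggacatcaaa
These windows lie at chrI:3180004-3180103, minus strand (rpl2301); chrIII:1311522-1311621, plus strand (rpl2302); chrII:413427-413526, plus strand (rpl2501); chrII:2690721-2690820, plus strand (rpl2502); chrI:4287433-4287532, minus strand (rps801); chrIII:1640916-1641015, plus strand (rpl39); chrI:5018007-5018106, plus strand (rpl31); chrIII:798144-798243, plus strand (rps1501); and chrIII:656525-656624, plus strand (rpl2802). They were read by gene name from the reference and are not the amplified stretches on the array, whose sequences and genome build no source used here gives. A HomolD match stood before rpl2301, the highest member upstream, and equally before its low paralogue rpl2302 and before rpl2802, the lowest. No match stood in the window of the second highest, rpl2501, and rpl39 had 2 HomolD matches. These 3 low members each had a HomolE match, which in rps1501 and rpl2802 stood just before HomolD and in rpl31 stood without an exact HomolD match. Only exact matches were searched and marked. Stretches that differ from HomolD by a single letter, such as ccgtcac in rpl31 and ctgactg in rpl2501, do not count. The second lowest upstream member, rps2602, whose sequence is not printed, has HomolD and no HomolE. Among members with HomolE the highest upstream mean was 1.81, that of rps1701, whose sequence is also not printed. The 9 printed members were not taken by rank alone. A match describes the letters of a window and not a bound factor.

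Of the 134 upstream member features that the array does not mark as missing, 81 had a ratio on all 3 arrays, 24 on 2, 14 on 1 and 15 on none (60.4% on all 3, against 43.5% of the 4662 other upstream features). Among ORF features 83 of 138 had a ratio on all 3 arrays (60.1%, against 64.5% of 4869 others). The missing ratios mostly lacked an accepted input signal, in 24.1% of upstream member values, while the immunoprecipitate signal was missing in 1.99%. All 6 upstream features that the array marks as missing, such as that of rpp201, were treated as not measured.

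Upstream of ribosomal protein genes, limma called Tup12 enrichment about as often as upstream of other genes. Of the 81 upstream members, 34 were enriched, 6 were depleted and 41 were not called, where 43.7% of all 2109 upstream features were enriched and 7.35% were depleted. The 3 arrays gave medians of 0.47, 0.49 and 0.60 for the members, against 0.57, 0.63 and 0.50 for the other upstream features. The difference was -0.05 ± 0.13 on average and changed sign between arrays, -0.10, -0.14 and 0.10 (exact sign-flip test over 3 arrays, two-sided p = 0.5, with 0.25 the smallest possible). The list of bound features that the protocol in the labels describes, those with a median percentile rank at or above the 85th percentile, held 13 of the 81 members (16.0%) and 26.1% of all upstream features. With arrays centred on the median of ORF features instead, 48 upstream members were enriched and 0 depleted (limma), as 62.3% of all upstream features were enriched and 1.94% depleted. Without the filter on spot flags, 13 of 134 upstream members were enriched and 11 depleted, where 15.1% and 5.57% of all upstream features were.

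**Figure D1:**
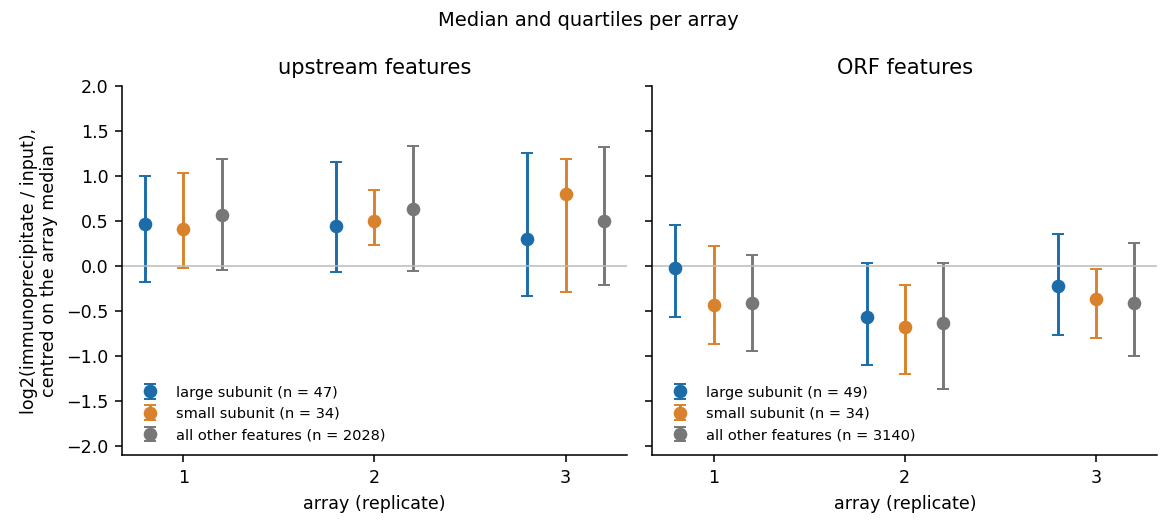
Median (point) and quartiles (bars) of log2(immunoprecipitate / input) on each of the 3 arrays, for upstream features (left) and ORF features (right), of large subunit genes, small subunit genes and all other genes. Upstream medians lie between 0.30 and 0.79, ORF medians between -0.68 and -0.02, and the quartiles of the 3 sets overlap on every array.

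The highest upstream member was rpl2301, a large subunit gene, with 2.89, 2.97 and 2.68 on the 3 arrays, 7.18 times the array median (mean 2.84 ± 0.15, adjusted p = 5.05e-09 by limma). Next came rpl2501, which encodes uL23 of the large subunit, with 2.68, 2.70 and 2.85 (mean 2.74 ± 0.09, adjusted p = 8.16e-09 by limma). The stretch before rpl2501 is shared with a divergent gene. The feature named rpl13a-1 on the array followed with 2.07, 2.29 and 2.47 (mean 2.28 ± 0.20). These 3 were the members with a mean of 2 or more (3.70% of members, against 8.88% of other upstream features), and their single arrays stayed above 2 throughout.

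Values on every array above 1 were also seen upstream of rpl1001 (uL16 family, listed as L10), with 1.76, 2.21 and 2.03, and of the small subunit gene rps801 (eS8), with 1.88, 2.06 and 1.94. Their adjusted p were 1.73e-06 and 2.10e-06 (limma). The next members were rps1701 (eS17) with 1.53, 1.50 and 2.40, rpl35A02 (eL33) with 1.55, 2.20 and 1.54, and rpl39 with 1.98, 1.21 and 1.68. All 3 arrays were above 1 for each of them, with SDs of 0.51, 0.38 and 0.39. The list of the 10 highest ended with rps1502 (uS19) at 1.08, 1.37 and 2.20 and rps3001 (eS30) at 1.23, 2.19 and 1.20. The long upstream feature of rps1701 was also enriched, with 1.40, 1.81 and 1.09 (mean 1.43 ± 0.36, adjusted p = 0.000145 by limma), and on replicate 3 lay below the shorter one. Without the filter on spot flags, rps1701, rpl35A02, rpl39, rps1502 and rps3001 were no longer called (limma adjusted p from 0.0506 to 0.153), and rpl39 was also not called after a further background subtraction (0.395).

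At the other end, rpl2802 (uL15, a large subunit protein) had -1.25, -0.72 and -1.35, 0.465 times the array median (mean -1.10 ± 0.34, adjusted p = 0.00187 by limma). The small subunit genes rps2602 (eS26) with -1.12, -0.69 and -1.14 and rps1501 (uS19) with -1.08, -0.84 and -0.90 lay close to it. A further pair of large subunit genes, rpl1802 (eL18) and rpl31 (eL31), averaged -0.91 ± 0.70 and -0.78 ± 0.38. All 5 were below the array median on every array. The stretch before rps1501 is shared with the divergent gene spt2, whose own upstream feature stood at 0.31 ± 0.43, and that of rpl31 with rmt1, at 0.19 ± 0.19. With arrays centred on ORF features none of these 5 kept its call (limma adjusted p from 0.0532 to 0.354). Without replicate 1 the depleted upstream members numbered 1 of 90, while the share over all upstream features was 2.67%, and rpl2802 (0.064), rps2602 (0.104), rps1501 (0.127) and rpl31 (0.139) lost their calls by limma. The call of rpl1802 was lost without replicate 2 (0.117), and that of rpl31 also without replicate 3 (0.231).

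**Figure D2:**
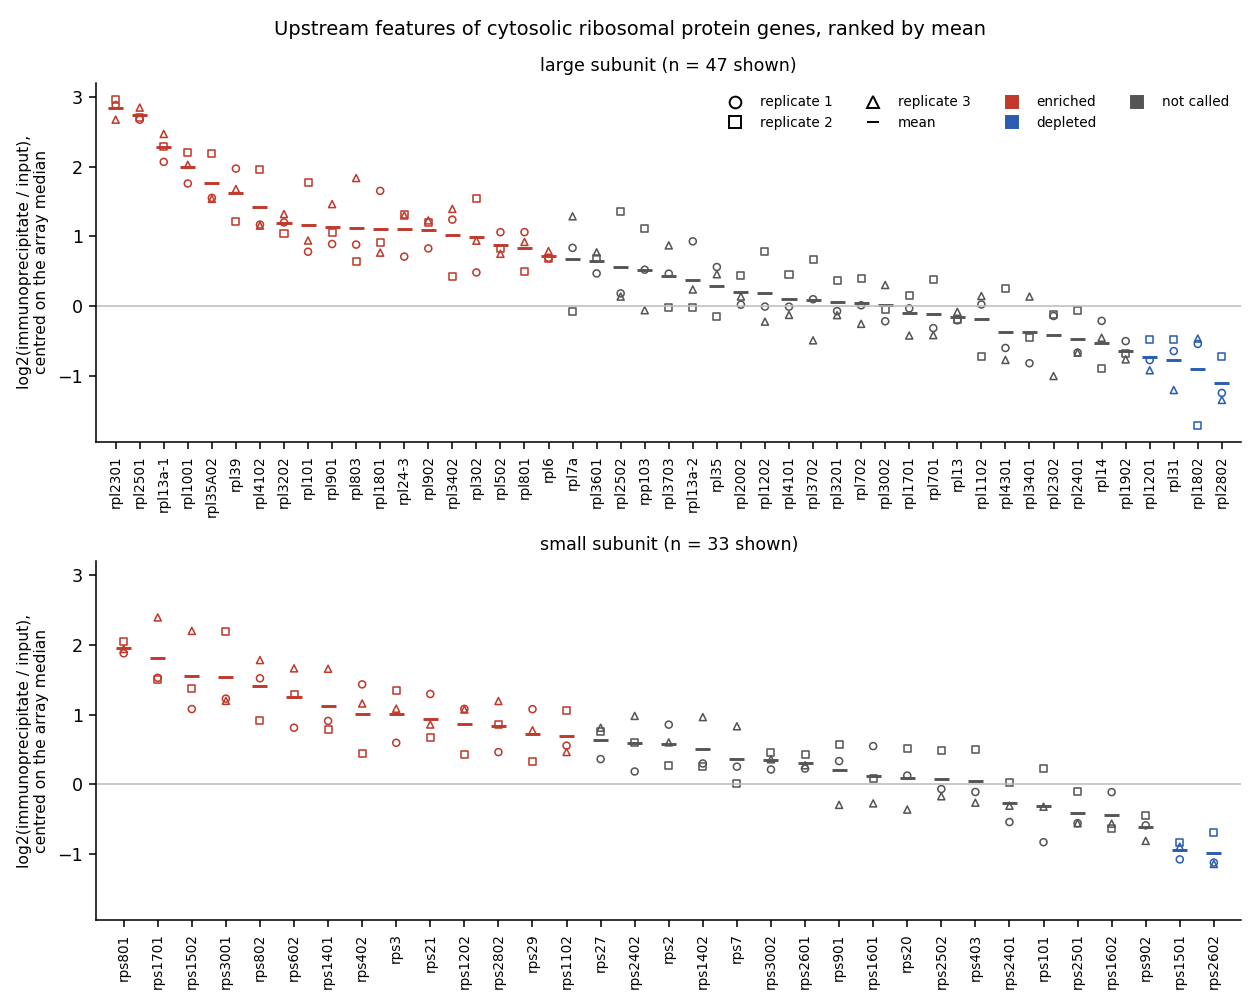
Log2(immunoprecipitate / input) of upstream member features with a value on all 3 arrays, large subunit above and small subunit below, ranked by mean. Symbols are single arrays, dashes are means and colours are calls by limma; rpl2301 and rpl2501 stand highest and rpl2802 lowest.

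Members with and without an exact match to each promoter element overlapped in value. Upstream features of members with HomolD (n = 71) had medians of 0.33, 0.49 and 0.46 on the 3 arrays, against 0.69, 0.56 and 0.92 for the 6 without a match, a mean difference of -0.30 ± 0.21. The 6 were rpl2501, rps1401, rps1202, rpl3601, rps902 and rpl31, whose means ran between -0.78 and 2.74, and without replicate 1 the difference was -0.077. Of the 117 HomolD matches in genes outside the members, 58 stood before tested upstream features, which had a median of 0.31 and 22 enriched. Members with HomolE included 11 enriched and 5 depleted features among 23, and those without it 21 enriched and 1 depleted among 54. Of all upstream features, 43.7% were enriched and 7.35% depleted. Array medians were 0.78, 0.49 and 0.60 with HomolE, and 0.33, 0.48 and 0.46 without it. The 16 members with TATAAA had a median of 1.05, against 0.37 in the 61 without it. Their array medians were 0.81, 0.77 and 0.98, against 0.25, 0.43 and 0.36. Differences by HomolE or TATAAA were not tested.

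Many ribosomal protein genes share the region before them with a divergent gene. Among the tested members with an annotated neighbour, 46 faced a divergent gene and had a median of 0.40, against 0.56 for other divergent upstream features. The 31 behind a gene of the same direction had a median of 0.72, against 0.50 for other such features. Over all genes, the upstream features of divergent neighbours correlated at r = 0.65 (n = 582 features) and those of tandem neighbours at r = 0.25 (n = 390), and the intergenic features are therefore read as upstream of the gene they name. These points share arrays and, in divergent pairs, the same region between genes. Whether the features of such a pair hold the same DNA is not known. The upstream feature of sim4, the divergent neighbour of rpl1001, stood at 1.67 ± 0.21, near the 2.00 ± 0.23 of rpl1001 itself. Without the divergent members, the difference between members and others was 0.13 ± 0.16.

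Over the ORFs, most members were not called, and those that were called were mostly depleted. Of the 83 ORF members, 5 were enriched, 22 were depleted and 56 were not called, where 8.19% of all 3223 ORF features were enriched and 38.8% were depleted. Members had medians of -0.08, -0.59 and -0.28 on the 3 arrays, against -0.41, -0.63 and -0.41 for other ORFs. The difference, 0.17 ± 0.15, was positive on all 3 arrays (0.33, 0.04 and 0.14; exact sign-flip p = 0.25, the smallest possible), and was 0.08 without replicate 1. Centring on ORF features gave 12 enriched and 9 depleted members, with 17.3% and 19.6% of all ORF features. The binding list by rank held 2 ORF members, rpl2301 and rps21, or 2.41%, against 3.79% of all ORF features.

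The ORF of rpl2301 was the highest, as its upstream feature was, with 2.23, 1.70 and 1.63 (mean 1.85 ± 0.32, adjusted p = 5.76e-06 by limma). The ORFs of rpl14 (eL14), at 0.93, 1.24 and 1.17, and of rps21 of the small subunit, at 1.21, 0.78 and 1.28, followed with adjusted p of 0.00154 and 0.00199 (limma). The last called ones were rpl39 (0.77 ± 0.33) and rpl402 (uL4, 0.71 ± 0.25). Only rpl2301 of these 5 kept its call under every alternative run. That of rps21 was lost after a further background subtraction (limma adjusted p = 0.729) and without replicate 1 (0.0651), that of rpl39 without replicate 1 (0.157) or 2 (0.0734), that of rpl402 without replicate 1 (0.318) or 3 (0.133), and that of rpl14 after loess (0.0877) and without the flag filter (0.26). Enriched ORF members numbered 2 of 90 without replicate 1 and 8 of 89 without replicate 2, where 4.96% and 10.1% of all ORF features were enriched. The other 5 of the 10 highest, rpp0, rpp202, rps1001, rps1501 and rpl35A01, averaged between 0.39 and 0.61 and were not called.

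The lowest ORF was that of rps3001, whose protein eS30 is made in mammals as a fusion with a ubiquitin-like protein, with -1.71, -2.79 and -2.07, 0.220 times the array median (mean -2.19 ± 0.55, adjusted p = 8.23e-07 by limma). Also among the lowest were rpl2001 (eL20) with -1.36, -2.18 and -1.25, rpl2101 (eL21) with -1.42, -1.99 and -1.26 and rpl901 (L9) with -0.94, -2.18 and -1.40. All 4 lay below the array median on every array. The array carries the name of rpl2001 on a second ORF feature, marked as a copy, which stood at 0.32, -0.76 and 0.03 and was not called (limma adjusted p = 0.713). Features under a single gene name thus gave different values, -0.14 ± 0.56 for the copy against -1.60 ± 0.51 for the first; whether they hold the same DNA was not tested. The name behind rpl2101 was assigned because the array names all other members of that family otherwise.

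**Figure D3:**
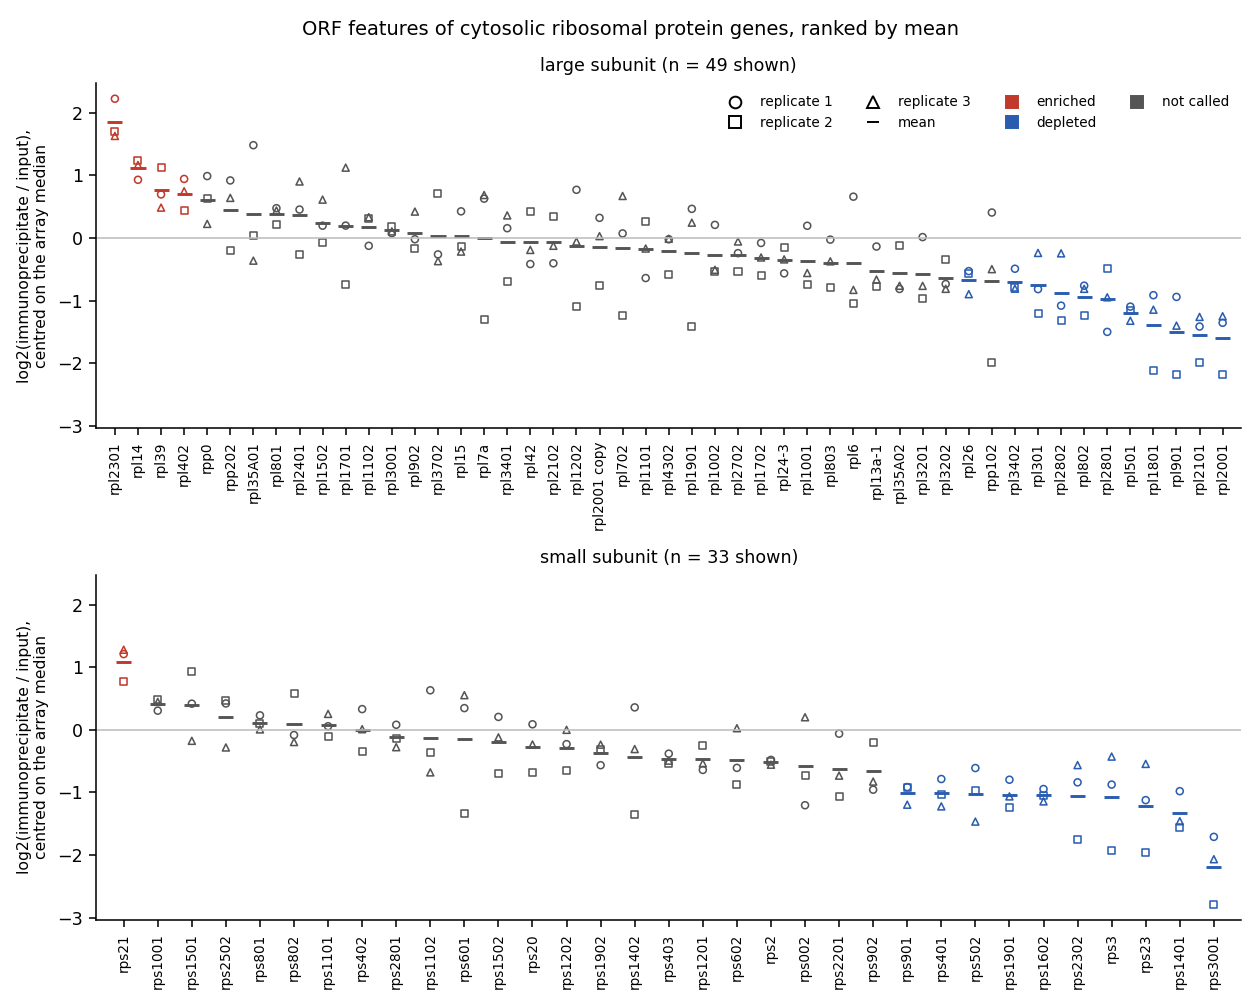
Log2(immunoprecipitate / input) of ORF member features with a value on all 3 arrays, large subunit above and small subunit below, ranked by mean, with symbols for single arrays, dashes for means and colours for calls by limma. Most means lie below 0, rpl2301 stands alone at 1.85 and rps3001 at -2.19.

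In 43 member genes both features had values on all 3 arrays, so that upstream and ORF could be set against each other within a gene. The upstream feature was higher than the ORF in 34 of them, and on all 3 arrays in 26 (60.5%, where this was so in 61.7% of all 1306 genes with both features). It was lower on all 3 arrays in 2 genes (4.65%, against 7.81% of all). The median difference was 0.83, 1.26 and 1.07 on the 3 arrays (mean 1.06 ± 0.22; exact sign-flip p = 0.25, the smallest possible), and 0.89, 1.17 and 0.80 in the 1263 other genes.

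The widest gap within a gene was that of rps3001, with 1.54 ± 0.56 upstream and -2.19 ± 0.55 over the ORF. In 7 of the 43 genes, among them rps3001, rpl901 and rpl1801, the upstream feature was enriched while the ORF was depleted. This was so in 11.5% of all 1306 genes. In 3 of the 43, rpl2301, rpl39 and rps21, both were enriched, where this was so in 10.9% of all. The 2 genes with the reverse order on all arrays were rpl14, with -0.52 ± 0.35 upstream and 1.11 ± 0.16 over the ORF, and rps1501, with -0.94 ± 0.12 upstream and 0.40 ± 0.56 over the ORF. Across the 43 genes upstream and ORF means correlated at r = 0.01, against r = 0.42 across 1263 other genes; these points share the 3 arrays, and the difference between the coefficients was not tested.

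**Figure D4:**
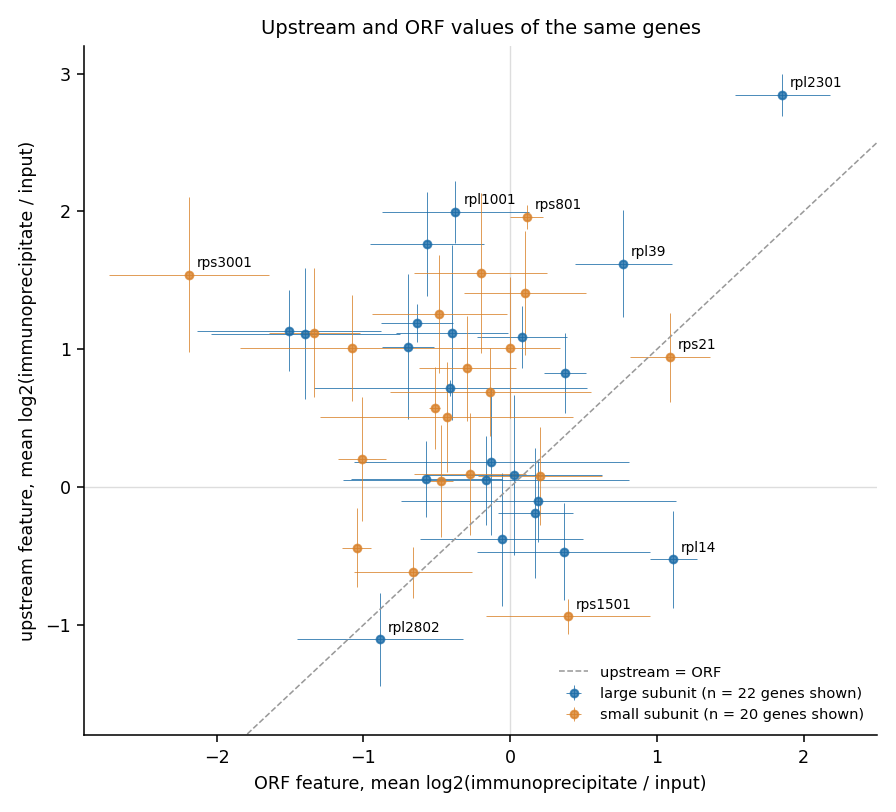
Mean log2(immunoprecipitate / input) of the upstream feature (vertical) against the ORF feature (horizontal) of member genes, with SD over 3 arrays as bars and a dashed line of equality. Most genes lie above the line, rpl2301 is high on both axes, and rpl14 and rps1501 lie below the line.

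Upstream, large and small subunit genes differed by less than the spread between arrays. There 19 of 47 large subunit features were enriched and 4 depleted, against 15 and 2 of 34 small subunit features. The shares over all upstream features were 43.7% enriched and 7.35% depleted. The difference of the medians, large minus small, was 0.06, -0.05 and -0.49 on the 3 arrays (mean -0.16 ± 0.29; exact sign-flip p = 0.75), and 0.05 without replicate 3. Over the ORFs, 4 of 49 large subunit features were enriched and 11 depleted, against 1 and 11 of 34. The shares over all ORF features were 8.19% enriched and 38.8% depleted. In the ORFs the difference was 0.41, 0.11 and 0.15 (mean 0.22 ± 0.16; exact sign-flip p = 0.25, the smallest possible), and 0.14 without replicate 1.

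The P-stalk genes, whose proteins recruit translation factors to the large subunit, were thinly measured. Over the ORFs, rpp0, which encodes the base of the stalk, had 0.99, 0.62 and 0.23 (mean 0.61 ± 0.38, adjusted p = 0.0714 by limma). The P2 gene rpp202 had 0.92, -0.20 and 0.64, and the P1 gene rpp102 had 0.41, -1.99 and -0.50. Neither was called over all 3 arrays, and both changed sign between arrays. Leaving out replicate 1 gave a call for rpp102 (-1.25, limma adjusted p = 0.0221), and leaving out replicate 2 gave one for rpp202 (0.78, 0.026). The ORF of rpp103 had a single value of -0.15 and that of rpp201 a single value of 1.57, both on replicate 2, and those of rpp101 and rpp203 had none. Upstream, only rpp103 was measured on all 3 arrays, with 0.52, 1.11 and -0.06 (mean 0.52, adjusted p = 0.133 by limma). On replicates 1 and 2, the upstream values were 0.45 and 1.17 for rpp0, 1.05 and -0.01 for rpp101, and 0.74 and 0.64 for rpp202. Replicate 1 alone gave -0.02 for rpp102 and 0.57 for rpp203.

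Upstream of paralogues, Tup12 signal differed about as much as between ribosomal protein genes of different families. Families with more than 1 gene gave 63 pairs in 55 families, of which 21 pairs had both upstream features on all 3 arrays and 26 had both ORFs. Upstream, the median absolute difference was 0.92, 0.87 and 1.23 on the 3 arrays (mean 1.01 ± 0.20), the difference had a single sign on all 3 arrays in 17 of 21 pairs, and 9 pairs differed by 1 or more. Over the ORFs it was 0.55 ± 0.07, with a single sign in 15 of 26 pairs and 4 pairs at 1 or more. Both genes were enriched in 3 of the 21 upstream pairs, 1 was enriched and the other not called in 8, the calls were opposite in 2, 1 was depleted and the other not called in 2, and neither was called in 6. Pairs of members from different families, 2905 upstream pairs that share features with each other, gave similar values: a single enriched gene in 49.2%, against 47.6% of paralogue pairs, and a difference of 1 or more in 40.8%, against 42.9%. Their median absolute difference was 0.87 ± 0.12 upstream, and 0.76 ± 0.08 over the ORFs (3055 pairs). A single sign on all 3 arrays was seen in 71.3% of these upstream pairs, against 81.0% of paralogue pairs. Over the ORFs it was seen in 57.6%, against 57.7%. ORF differences of 1 or more were seen in 29.5%, against 15.4% of paralogue pairs. Upstream, both genes were enriched in 17.0% of pairs from different families, against 14.3% of paralogue pairs. A gene was enriched and the other not called in 42.7%, against 38.1%. Calls were opposite in 6.54%, against 9.52%, and neither gene was called in 25.3%, against 28.6%. The coding sequences of the 21 pairs were 79.1% to 99.6% identical (median 87.5%), and the 500 bases before their start codons had a median identity of 52.0%.

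The pair furthest apart was rpl2301 with 2.84 ± 0.15 and rpl2302 with -0.42 ± 0.51, a difference of 3.27 ± 0.36 that was 3.03, 3.09 and 3.68 on the 3 arrays. Both promoter windows printed above hold a HomolD match. The next pair, rps1501 with -0.94 ± 0.12 and rps1502 with 1.55 ± 0.58, differed by -2.49 ± 0.53. The upstream stretch of rps1502 is shared with the divergent gene rpp203, whose own upstream feature had 0.57 on its single array. The pair after that was rpl2501 with 2.74 ± 0.09 and rpl2502 with 0.56 ± 0.69, a difference of 2.19 ± 0.73, where the lower gene has the HomolD match. The upstream stretch of rpl2501, too, is shared with a divergent gene.

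In the eL18 pair, rpl1801 stood at 1.11 ± 0.48 and rpl1802 at -0.91 ± 0.70, a difference of 2.02 ± 0.71. The call of rpl1801 was lost without replicate 1 (limma adjusted p = 0.14) and that of rpl1802 without replicate 2 (0.117). The L34 pair differed by -1.40 ± 0.61, with -0.38 for rpl3401, whose name was assigned by elimination, and 1.02 for rpl3402, whose call was lost without replicate 1 (0.11) or 3 (0.0653). Differences of -1.32 ± 0.17 between rpl4101 and rpl4102, of 1.29 ± 0.16 between rps2601 and rps2602 and of 1.20 ± 0.47 between rps3001 and rps3002 completed the 8 widest. Each of these 8 pairs kept its direction on all 3 arrays. The L9 genes rpl901 and rpl902, by contrast, were both enriched upstream at 1.14 ± 0.30 and 1.09 ± 0.23, a difference of 0.05 ± 0.19.

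Over the ORFs the L9 genes were the pair furthest apart, with -1.51 ± 0.63 for rpl901 and 0.08 ± 0.31 for rpl902, a difference of -1.59 ± 0.58. Further differences were -1.49 ± 0.73 between rpl2101 and rpl2102, 1.31 ± 0.12 between rpl801 and rpl802 (uL2), -1.01 ± 0.29 between rps401 and rps402 (eS4) and 0.95 ± 1.17 between rpl35A01 and rpl35A02. The last rested on replicate 1, where it was 2.30, against 0.16 and 0.40 on the others. Pairs with coding sequences of 90% identity or more (n = 12) had a median absolute ORF difference of 0.54, and less similar pairs (n = 14) had 0.41. Upstream the order was the opposite, with 0.56 for the 7 pairs of 90% identity or more and 1.25 for the less similar ones. Whether spots of similar ORFs shared hybridised DNA was not tested.

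**Figure D5:**
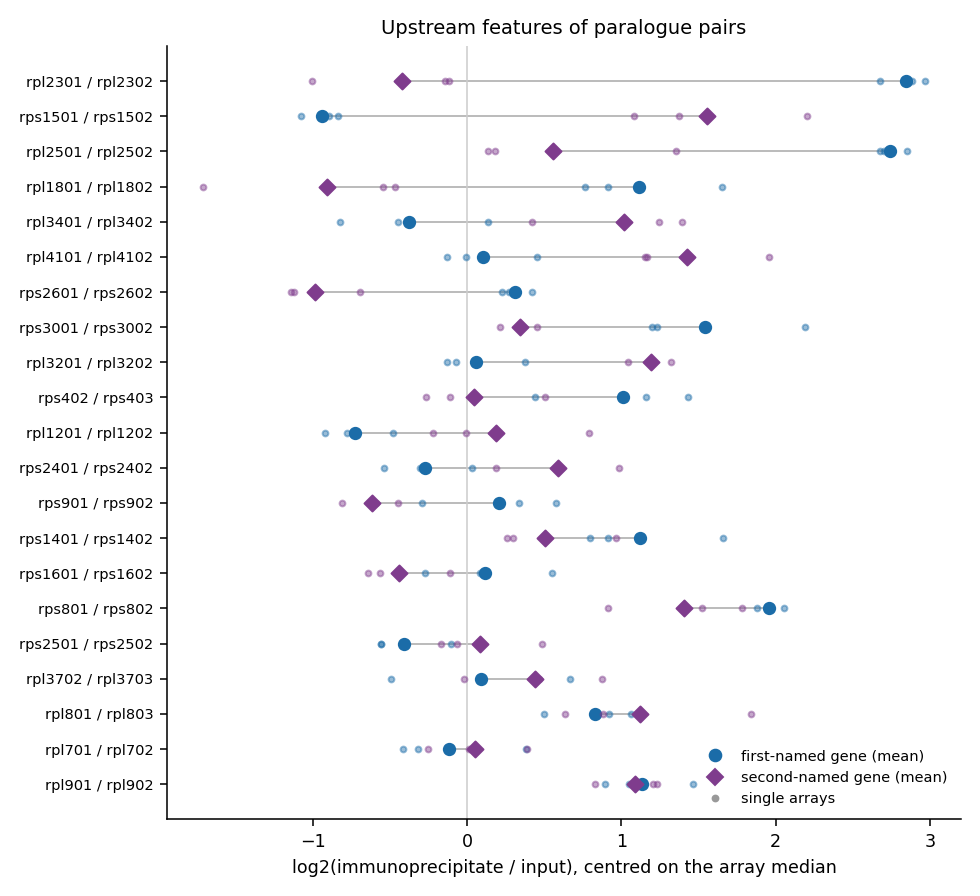
Upstream log2(immunoprecipitate / input) of the 21 paralogue pairs with values on all 3 arrays, with the widest difference at the top. Large symbols are means of the first-named gene (circle) and the second-named gene (diamond), and small points are single arrays; rpl2301 and rpl2302 lie 3.27 apart, rpl901 and rpl902 lie 0.05 apart.

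Members without a ratio on all arrays included some high values. The highest mean over 2 arrays was that of the upstream feature of rpl1603 (L16), at 2.67 and 2.39 on replicates 2 and 3. The ORF of rps1701 had 1.98 and 1.67 on replicates 1 and 2, and its upstream feature was among the 10 highest. Upstream values on replicates 2 and 3 were 1.89 and 1.34 for rps2201, 1.74 and 1.37 for rps102, and 1.40 and 1.70 for rps1901. Taking features with a value on at least 2 arrays gave 45 enriched and 6 depleted upstream members (limma), where 41.3% and 4.76% of all upstream features were called.

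As across the whole array, ratios were higher where input signal was lower. Across the 81 upstream members the mean log2 ratio correlated with the mean log2 input at r = -0.62 and with the mean log2 immunoprecipitate at r = 0.55, and across the 83 ORF members at r = -0.60 and 0.22. The coefficients were -0.48 and 0.61 across other upstream features and -0.57 and 0.43 across other ORFs, and input is part of each ratio. Input signals of the rpl2301 upstream feature were 20450, 29625 and 18054 intensity units on the 3 arrays, where the median tested upstream member had 58366, 94109 and 74851. Those of rpl2802 were 118797, 157334 and 159628. Compared within bands of like input signal, the difference between members and others was 0.01 ± 0.08 upstream, and over the ORFs it was 0.31 ± 0.04, against 0.17 ± 0.15 without bands.

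Genes that serve ribosome production in other ways were looked at beside the members. Of 11 genes listed as regulators of ribosomal protein genes or growth, the upstream feature of psk1, an S6 kinase gene, stood highest, with 3.59, 3.62 and 3.93 (mean 3.71 ± 0.19, adjusted p = 4.66e-11 by limma), and its ORF was at 1.32 ± 0.50. The upstream feature of sck1, a kinase gene, was enriched at 1.29 ± 1.52 but had 3.00, 0.11 and 0.75, so the call rests on replicate 1. That of hmo1, a high mobility group gene, was depleted at -0.67 ± 0.31 (limma adjusted p = 0.0483). The 2 upstream features of mip1, which encodes a partner of TOR, averaged 0.04 ± 0.56 and 0.05 ± 0.46.

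Over the ORFs, the forkhead gene fhl1 was depleted at -1.60 ± 0.12 and the RNA polymerase I factor gene rrn3 at -0.73 ± 0.69. The ORFs of hmo1 (-0.59 ± 0.16), mip1 (-0.55 ± 0.84), sck2 (-0.35 ± 0.97), sfp1 (-0.28 ± 0.37) and tor2 (-0.27 ± 0.29) were not called by limma. The listed genes ifh1 and rap1 had no feature with a value on all 3 arrays. The list was matched by gene name, and the role of each gene in fission yeast was not examined here.

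Of 27 ribosome biogenesis genes, 7 upstream features were tested and 4 were enriched (57.1%), the highest being gar1, of the H/ACA snoRNA particle, at 1.29 ± 0.41 and the lowest nip7 at -0.23 ± 0.46, and 7 of 15 ORFs were depleted, with mrt4 lowest at -1.60 ± 0.54 and nhp2 highest at 0.46 ± 0.74. Of all features, 43.7% were enriched upstream and 38.8% depleted over ORFs. For RNA polymerase I, 2 of 5 tested ORFs were depleted, between -1.66 ± 0.20 for nuc1, which encodes the largest subunit, and -0.12 ± 0.60 for rpa43. Mitochondrial ribosomal protein genes, of which 25 upstream features were tested, had 10 enriched and 1 depleted, with a median of 0.49 and a range between -1.11 ± 0.15 for mrpl31 and 2.36 ± 0.65 for mrpl35. Among their 39 tested ORFs 2 were enriched and 16 depleted, with mrpl35 highest at 1.44 ± 0.51 and mrpl6 lowest at -2.46 ± 0.73.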

How the data were processed

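The authors deposited spot intensities of 3 two-colour arrays (22176 spots each) per channel, not normalized between channels; in the files local background is already subtracted and spots with flag X stand at 0. Scanner (ScanExpress) and spot software (TIGR Spotfinder) are those named in the labels' protocols, while versions and genome build are not stated there. The deposited series matrix holds log10 values that, per the labels, were median normalized in GeneSpring. Set against the spot files, they follow the immunoprecipitate channel alone, not the ratio, and they served as an alternative.

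Values were log2 of integrated Cy5 over Cy3 intensity for the spots accepted in both channels (63.5%, 67.9% and 63.4% of 19944 genomic spots), less each array's median (0.52, -0.29 and 0.24), with repeat spots averaged (r = 0.94, 0.93 and 0.94 between them). Negative control spots were accepted in 42.1% to 49.6% of cases in the immunoprecipitate channel and in 1.54% to 1.85% in the input channel. Features marked as missing (231) behaved like these in the input channel and were treated as not measured. Each feature's mean was tested against 0 with limma 3.58.1 in R 4.3.3, checked on simulated data; differences between sets were taken between medians on each array and tested by exact two-sided sign flips. The 3 arrays limit the precision.

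Array names were matched to genes through systematic names and current or older symbols (9540 of 9968 features), and 7 member names (13 features) by elimination within their family. Motifs and promoter sequences come from RefSeq (ASM294v3), paralogue identities from global alignment. Members, gene lists and motifs were chosen with earlier results of these data known. Genes are named by rule: among members measured on all arrays the 10 highest and 5 lowest upstream and ORF features, the 8 upstream and 5 ORF pairs that differ most, all P-stalk genes, the 5 highest on 2 arrays, the ends of each other list and all regulators. The members without HomolD, the pair rpl901 and rpl902, genes with both features called and those lower upstream were named after their values were seen. A gene that the rule names is not reported here or drawn in the figures. Pairs of members from different families were added after seeing the data.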

Additional observations from a re-analysis of the deposited data

How the results depend on the processing

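No comparison between groups, paired or not, was possible because the arrays form a single group. Immunoprecipitate and input are paired within each array by the ratio. Counts are for members. Centring on ORF features gave 0 upstream features depleted, 12 ORFs enriched and 9 depleted (of all features 1.94%, 17.3% and 19.6%). A further background subtraction gave 2 upstream features depleted, 3 ORFs enriched and 5 ORFs depleted (of all features 3.39%, 6.56% and 14.0%). It also gave an upstream shift of -0.19, an ORF shift of 0.0065, paralogue differences of 1.39 (upstream) and 0.78 (ORF), an upstream minus ORF difference of 1.28 and a HomolD difference of -0.85. Without the flag filter there were 13 enriched and 11 depleted upstream features, 12 enriched and 36 depleted ORFs (of all features 15.1% and 5.57% upstream, 5.47% and 31.9% of ORFs), an upstream shift of -0.27, ORF paralogue differences of 0.97 and an upstream minus ORF difference of 0.66, and rpl402 over its ORF turned to -0.026. Normexp with an offset of 50 gave 3 enriched and 14 depleted ORFs (6.24% and 26.5% of all ORF features). It also gave an ORF shift of 0.35, paralogue differences of 1.69 (upstream) and 0.73 (ORF), an upstream minus ORF difference of 1.38 and a HomolD difference of -0.55. Loess gave 2 depleted upstream features (4.1% of all upstream features), and leaving out dim input an upstream minus ORF difference of 0.78. The rank list held 13 upstream and 2 ORF features (26.1% and 3.79% of all). The cause was not tested for any of these, beyond the features gained or lost: 134 upstream members had values without the flag filter, 76 after the further subtraction and 67 without dim input, against 81.

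The deposited log10 matrix, turned to log2, holds a single channel, so its values are not ratios. It gave 7 enriched and 2 depleted upstream features, 13 enriched and 1 depleted ORFs, of 96 and 65 members with values (of all features 15.3% and 1.33% upstream, 16.4% and 0.667% of ORFs), an upstream shift of 0.19, an upstream minus ORF difference of -0.34, a large minus small ORF difference of -0.42, ORF paralogue differences of 0.80 and a HomolD difference of -0.58. Among named features called in either, the upstream features of rpl1801 (-0.95), rpl3402 (-0.39), rpl35A02 (-0.12) and rps1501 (0.54) changed sign, as did the ORFs of rpl14 (-0.45), rpl2001 (1.45), rpl39 (-0.011), rps21 (-1.43), rps401 (2.49) and rps402 (2.43), and another 11 named features called in neither also changed sign.

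Leaving out each array in turn gave 25 to 38 enriched and 1 to 8 depleted upstream features, 2 to 8 enriched and 16 to 21 depleted ORFs, and a HomolD difference of -0.35 to -0.077. Of all upstream features, 31.9% to 41.8% were then enriched and 2.67% to 7.53% depleted. Of all ORF features, 4.96% to 10.1% were then enriched and 22.7% to 33.5% depleted. Upstream minus ORF ranged from 0.89 to 1.17, upstream paralogue differences from 0.90 to 1.13 and the upstream shift from -0.13 to 0.02. Alternatives chosen after seeing the data were a shift of 0.13 without divergent members, 33 enriched features with a single feature per facing member pair, and HomolD within 500 bases of the start codon, which gave -0.30. Repeat spots come in pairs, so their median equals their mean. The calls of rpl2301, rpl2501 and rpl1001 upstream held under every alternative that gave them a value. Leaving out dim input gave no test for the upstream features of rpl2301, rps801, rpl35A02 and rpl39, so their calls were not checked in that way.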
